A study of Homo sapiens with 2 samples.

Results

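The genes described here were CIITA and 9 further genes of the major histocompatibility complex (MHC) class II pathway, 10 of the 36601 genes in the count matrix. They were picked by name: CIITA, RFX5, CD74, HLA-DRA, HLA-DRB1, HLA-DPA1, HLA-DPB1, HLA-DMA, HLA-DMB and CTSS. The cells were OVCAR5, a human ovarian carcinoma line, with an IFN-gamma-sensing reporter. They had been grown as tumours in NSG-b2m-/- mice, an immunodeficient host, and 5 tumours were digested, after which the cells met cytokines for 6 h ex vivo. The labels list 5 entries with 100 ng/ml IFN-gamma plus 10 ng/ml TNF, 5 with 10 ng/ml TNF and 5 unstimulated. All carried hashtag antibodies, were joined in a single pool and were sorted for CFP, which the labels use for bystander tumour cells. IFN-gamma alone was not among the entries, so every IFN-gamma value comes with TNF.

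The gene expression library and its hashtag library held 5269 barcodes, 5267 of them with counts in both, and 10 hashtags. Of these barcodes 3538 were kept as cells, and 3144 (88.9%) carried 1 clear pair of hashtags. The 15 pairs held 49 to 630 cells and 582102 to 7324691 unique molecular identifiers (UMIs, each the count of an RNA molecule). No label states which pair received which treatment. The pairs were sorted into 3 sets of 5 in earlier work on these data. The set inferred as both cytokines held HTO2+HTO7, HTO3+HTO6, HTO3+HTO9, HTO4+HTO6 and HTO4+HTO9, with 919 cells. The set inferred as TNF held HTO2+HTO6, HTO2+HTO10, HTO3+HTO5, HTO3+HTO8 and HTO4+HTO8, with 1277 cells. The set inferred as no cytokine held HTO2+HTO5, HTO2+HTO8, HTO3+HTO7, HTO4+HTO7 and HTO4+HTO10, with 948 cells. The sets followed measured expression. The 5 pairs highest for a list of IFN-gamma response genes were 5 of 5 pairs of the both cytokines set, and the 5 pairs lowest for a list of NF-kB response genes were 5 of 5 pairs of the no cytokine set. A difference between sets is therefore a description of how these pairs were sorted, with no test. Whether the names of the sets are the treatments was not tested.

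MHC class II molecules are pairs of an alpha and a beta chain that show peptides from endosomes to CD4 T cells. Their genes are read in B cells, dendritic cells and macrophages, and in many other cells, tumour cells among them, after exposure to IFN-gamma. CIITA does not bind DNA itself: it is recruited by a complex of RFX5, RFXAP, RFXANK, CREB1 and NF-Y that sits on the X and Y boxes in front of class II genes, CD74 and the HLA-DM genes. CIITA transcription in such cells depends on IRF1, which IFN-gamma induces.

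Promoter sequences are shown for 4 members, each with a Y box core in the printed bases, because these boxes are a shared feature of the family. RefSeq windows (GRCh38.p14) were found for 7 of the 10 members, in 10 windows, and not for CIITA, HLA-DRA and CTSS. The windows of RFX5, HLA-DPA1 and HLA-DPB1 are not printed, and those of HLA-DPA1 held no Y box core. The printed sequences therefore do not show how common the boxes are among the members. The 150 bases before the start are printed 5′ to 3′ on the gene's strand, which is minus for all 4. The positions are chr6:32589849-32589998 for HLA-DRB1, chr6:32953098-32953247 for HLA-DMA, chr6:32941029-32941178 for HLA-DMB and chr5:150412911-150413060 for CD74. Capitals mark ATTGG (the Y box core, written CCAAT on the other strand), GCAAC (an X box core) and TGATGATG, on both strands.
HLA-DRB1: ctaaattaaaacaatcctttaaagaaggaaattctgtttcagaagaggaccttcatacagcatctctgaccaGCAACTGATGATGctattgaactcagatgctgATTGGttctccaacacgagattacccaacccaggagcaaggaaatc
HLA-DMA: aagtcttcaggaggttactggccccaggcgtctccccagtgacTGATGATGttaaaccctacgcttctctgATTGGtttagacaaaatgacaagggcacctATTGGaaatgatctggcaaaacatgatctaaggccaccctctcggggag
HLA-DMB: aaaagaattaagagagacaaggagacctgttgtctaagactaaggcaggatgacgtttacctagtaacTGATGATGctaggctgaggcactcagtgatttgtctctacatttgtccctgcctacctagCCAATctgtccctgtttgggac
CD74: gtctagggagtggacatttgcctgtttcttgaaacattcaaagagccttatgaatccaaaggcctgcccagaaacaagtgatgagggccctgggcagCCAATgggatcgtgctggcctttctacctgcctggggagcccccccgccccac

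In the 250 bases before the start, ATTGG stood in 6 of the 10 member windows, against 32.0% of all 35116 windows. GCAAC stood in 5 of 10, against 28.2% of all windows. In HLA-DRB1 it touches TGATGATG without sharing a base, and an ATTGG follows on the same strand. GCAAC followed by ATTGG at a gap of 20 to 35 bases was found in that 1 member window and in 0.424% of all windows. TGATGATG, whose letters were chosen after the promoters were seen, stood in 3 member windows (HLA-DRB1, HLA-DMA and HLA-DMB) and in 0.795% of all windows. These are matches of letters, not binding sites.

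By position on GRCh38 (GENCODE release 29), CIITA lies on chromosome 16 at 10866222 to 10943021, and CD74 on chromosome 5 at 150401637 to 150412929. RFX5 (151340640 to 151347357) and CTSS (150730196 to 150765957) lie on chromosome 1. The HLA genes lie on chromosome 6, from HLA-DRA (32439842 to 32445046) to HLA-DPB1 (33075926 to 33087201). HLA-DPA1 (33064569 to 33080775) overlaps HLA-DPB1 by 4850 bases on the opposite strand. Whether the counting used strand was not given in the sources at hand, and HLA-DRB1 has near-identical copies, so single values of these 3 genes are uncertain.

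The class II pathway was high in the 5 pairs of the both cytokines set and low in the other 10, for every member. CIITA, CD74, HLA-DRA, HLA-DRB1, HLA-DPA1 and CTSS stood far apart, whereas RFX5, HLA-DMA and HLA-DMB differed by about 2 to 3 times. HLA-DPB1 was sparse. Its lowest both cytokines pair was 2.35 times the highest TNF pair and 1.49 times the highest no cytokine pair. Levels are summed UMIs per 10000 UMIs, with exact Poisson intervals at 95% for counting error. Ratios between sets divide pooled levels and carry counting intervals only. They do not cover variation between tumours. Values of a set follow the order of its pairs above.

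CIITA, the master activator, had levels of 1.24, 1.12, 0.971, 1.16 and 1.18 in the both cytokines set, against 0.0475, 0.0377, 0, 0.0150 and 0.0263 in the TNF set and 0.0207, 0, 0, 0.00593 and 0.0206 in the no cytokine set. The 5 high pairs lay within a narrow range and none came near the other 10. Outside them the gene was at the edge of detection, with 41 counts over 1277 cells of the TNF set and 16 counts over 948 cells of the no cytokine set. In HTO3+HTO5, where CIITA had 0 counts, the floor of 3 counts is a level of 0.0515 and the exact interval reaches 0.0634. The pooled level of the both cytokines set was 43.6 times that of the TNF set (32.0 to 61.1) and 85.7 times that of the no cytokine set (52.6 to 150). TNF pairs held 1.97 times the CIITA of no cytokine pairs (1.08 to 3.75), and those 2 sets overlapped.

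RFX5, the DNA-binding subunit that holds the complex on the X box, had levels of 0.0764, 0.102, 0.0925, 0.0805 and 0.0935 in the both cytokines set. In the TNF set it had 0.0450, 0.0431, 0.0172, 0.0437 and 0.0591, and in the no cytokine set 0.0207, 0.0375, 0.0110, 0.0178 and 0.0442. The high set did not overlap the others, but the gap was small: its lowest pair was 1.29 times the highest TNF pair. The pooled ratio was 1.97 (1.43 to 2.72) to the TNF set and 3.02 (2.03 to 4.60) to the no cytokine set.

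CD74, the invariant chain that fills the groove of new class II molecules and steers them to endosomes, was the member with the most UMIs. Its level was 5.16, 4.66, 4.04, 4.76 and 5.56 in the both cytokines set, against 0.655, 0.727, 0.103, 0.647 and 0.545 in the TNF set and 0.542, 0.300, 0.331, 0.492 and 0.466 in the no cytokine set. Unlike CIITA, it was measured in all 15 pairs, with 960 counts in the TNF set and 537 in the no cytokine set. HTO3+HTO5, with 49 cells and 6 CD74 counts, was the lowest pair. The pooled ratio was 7.79 (7.27 to 8.35) to the TNF set and 10.7 (9.77 to 11.7) to the no cytokine set.

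**Figure D1:**
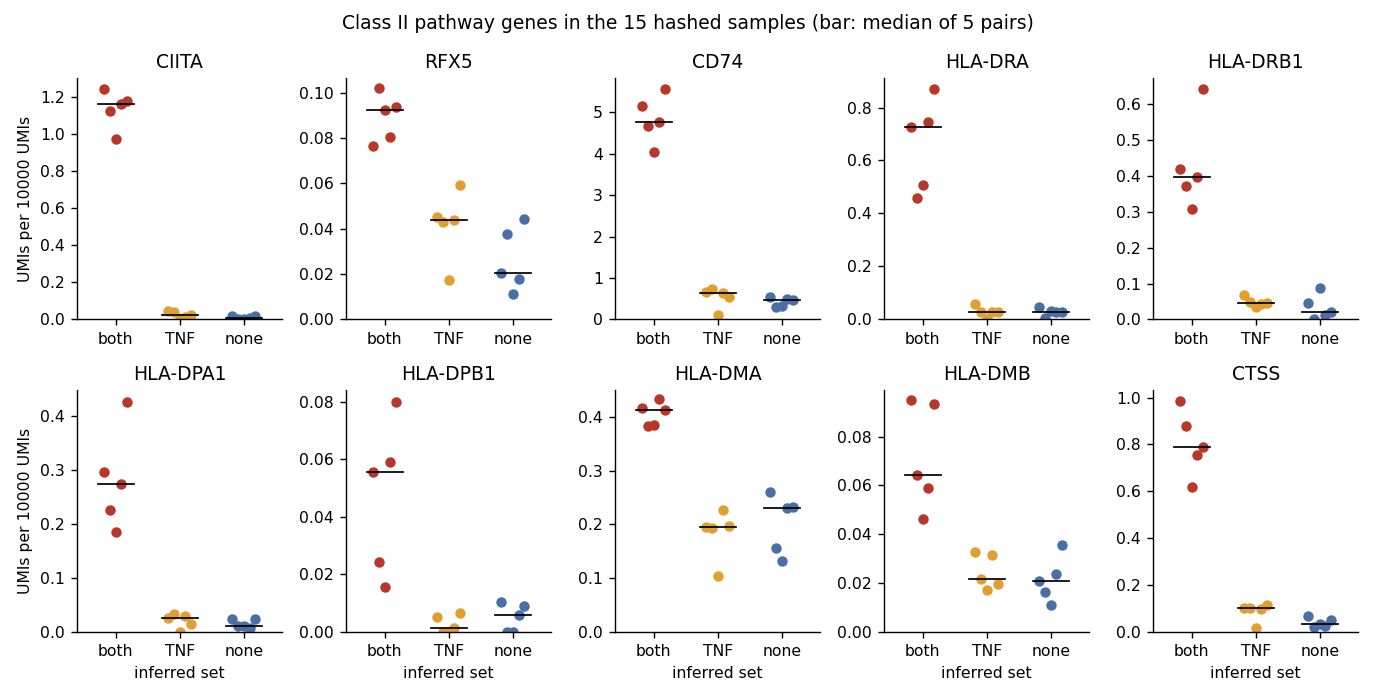
Level of each of the 10 members (UMIs per 10000 UMIs, each panel with its own axis) in the 15 hashtag pairs, by inferred set; points are pairs and bars the median of 5. CIITA lies between 0.971 and 1.24 in the both cytokines set and at 0.0475 or less elsewhere, while HLA-DMA stays between 0.103 and 0.434 throughout.

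HLA-DRA, the alpha chain of HLA-DR, had levels of 0.727, 0.459, 0.509, 0.746 and 0.868 in the both cytokines set, against 0.0575, 0.0269, 0, 0.0273 and 0.0263 in the TNF set and 0.0465, 0.00536, 0.0331, 0.0297 and 0.0265 in the no cytokine set. The lowest high pair stood well clear of the highest of the other 10, and the TNF and no cytokine pairs were mixed. Its pooled ratio was 18.8 (14.2 to 25.4) to the TNF set and 20.8 (14.9 to 29.9) to the no cytokine set.

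HLA-DRB1, the usual beta chain of HLA-DR, had 0.419, 0.373, 0.308, 0.397 and 0.641 in the both cytokines set, against 0.0675, 0.0485, 0.0344, 0.0423 and 0.0460 in the TNF set and 0.0465, 0, 0.0882, 0.0119 and 0.0206 in the no cytokine set. HTO4+HTO9 was the highest pair for both HLA-DR chains and for CD74. The pooled ratio for HLA-DRB1 was 8.22 (6.44 to 10.6) to the TNF set and 13.7 (9.70 to 19.9) to the no cytokine set.

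HLA-DPA1, the alpha chain of HLA-DP, had 0.296, 0.225, 0.185, 0.274 and 0.427 in the both cytokines set, against 0.0250, 0.0323, 0, 0.0287 and 0.0131 in the TNF set and 0.0232, 0.0107, 0.0110, 0.00593 and 0.0236 in the no cytokine set. Its order among the 5 high pairs was that of HLA-DRB1, with HTO4+HTO9 at the top and HTO3+HTO9 at the bottom. The pooled ratio was 10.6 (7.61 to 15.3) to the TNF set and 15.2 (9.74 to 24.8) to the no cytokine set. HLA-DPB1, its beta partner, was sparse, with 51 counts in the both cytokines set, 4 in the TNF set and 8 in the no cytokine set. Its lowest both cytokines pair, HTO3+HTO9, rested on 1 count, at a level of 0.0154 (0.000390 to 0.0859). The highest no cytokine pair was at 0.0103. Levels per 10000 UMIs are not per gene length and set no ratio between the HLA-DP partners.

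HLA-DMA encodes the alpha chain of HLA-DM, which removes the invariant chain fragment from the groove. It had levels of 0.417, 0.384, 0.385, 0.434 and 0.414 in the both cytokines set, against 0.195, 0.194, 0.103, 0.227 and 0.197 in the TNF set and 0.261, 0.156, 0.132, 0.231 and 0.233 in the no cytokine set. The gene was thus present in every pair, and its pooled ratio was 1.97 (1.70 to 2.28) to the TNF set and 1.83 (1.57 to 2.14) to the no cytokine set. HLA-DMB, the beta chain, ranged from 0.0462 to 0.0949 in the both cytokines set, from 0.0172 to 0.0325 in the TNF set and from 0.0110 to 0.0354 in the no cytokine set. Its pooled ratios were 2.64 (1.82 to 3.89) and 3.18 (2.06 to 5.07), to the TNF and to the no cytokine set. For neither HLA-DM gene did the counting interval reach the ratios of HLA-DRA.

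CTSS encodes cathepsin S, the protease that trims the invariant chain in antigen-presenting cells. It had levels of 0.984, 0.880, 0.617, 0.756 and 0.788 in the both cytokines set, against 0.103, 0.102, 0.0172, 0.0969 and 0.112 in the TNF set and 0.0645, 0.0214, 0.0331, 0.0237 and 0.0501 in the no cytokine set. The pooled ratio was 9.01 (7.58 to 10.8) to the TNF set and 19.4 (14.7 to 26.1) to the no cytokine set. CTSS was also 2.16 times higher (1.57 to 3.01) in the TNF set than in the no cytokine set, as a pooled ratio.

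A gene was called spanning when its highest pair was at least 4 times its lowest and that ratio had a lower bound of 2 or more. Only genes with a mean level of 0.05 or more were considered. A count of 0 was put at 3 counts. Of the 10 members 8 reached that mean level, and 6 of these were spanning: CIITA, CD74, HLA-DRA, HLA-DRB1, HLA-DPA1 and CTSS. Over all 9361 genes at that level, 10.1% were spanning. RFX5 had a ratio of 9.25 with a lower bound of 1.56, and HLA-DMA a ratio of 4.22 with a lower bound of 1.85. HLA-DPB1 and HLA-DMB lay under the minimum level.

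In the both cytokines set 8 of the 8 members at the minimum level lay above every pair of the TNF set, beside 5.70% of all genes. The same 8 lay above every pair of the no cytokine set, beside 8.57% of all genes. Without a minimum level the count was 10 of 10 in both comparisons, beside 2.54% of the 24625 genes with a count for the TNF set and 3.78% for the no cytokine set. For HLA-DPB1 the separation rested on 1 count in HTO3+HTO9. Under a limit of 10% mitochondrial UMIs, which left 661 cells, 4 of the 10 lay above the TNF set, 5 above the no cytokine set and 2 were spanning. The share over all genes was not computed at that limit, so the lower counts have no background beside them. The sets followed measured expression, so nothing is read from these counts. The median ratio of set medians over the members was 8.16 for both cytokines over TNF, beside 0.890 over all genes. It was 14.0 for both cytokines over no cytokine, beside 0.848 over all genes.

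No member lay above every no cytokine pair in all 5 TNF pairs, beside 4.04% of all genes that did. For CD74 and CTSS this rested on HTO3+HTO5, the smallest pair. Without it, CD74 ranged from 0.545 to 0.727 in 4 TNF pairs and from 0.300 to 0.542 in 5 no cytokine pairs, a ratio of medians of 1.40. CTSS then ranged from 0.0969 to 0.112 in TNF pairs and from 0.0214 to 0.0645 in no cytokine pairs, a ratio of 3.10. These 2 members then no longer overlapped, beside 6.04% of 9375 genes. The other 8 members overlapped still.

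The wider pathway was described by a list of 31 further genes of fixed roles, of which 19 reached the minimum level. Of these 19, 7 were spanning, beside 10.1% of all genes. In the both cytokines set 7 lay above the TNF set, beside 5.70% of all genes, and 11 above the no cytokine set, beside 8.57%. In the TNF set 5 lay above the no cytokine set, beside 4.04%. None lay below in any of these comparisons.

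The partners of RFX5 at the promoter did not share the pattern of CIITA. RFXANK, a subunit of the same complex, had medians of 0.334 in the both cytokines set, 0.344 in the TNF set and 0.381 in the no cytokine set. The NF-Y subunits also overlapped between sets, with pooled ratios of both cytokines to no cytokine of 1.09 (0.838 to 1.42) for NFYA, 0.658 (0.540 to 0.799) for NFYB and 0.746 (0.599 to 0.927) for NFYC. Beside these, the median ratio of set medians over all genes was 0.848. CREB1, which binds the X2 box, lay at 0.424 to 0.561 in the both cytokines set, at 0.344 to 0.479 in the TNF set and at 0.273 to 0.327 in the no cytokine set. For CREB1 the no cytokine set stood apart from both others.

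Of the genes upstream of CIITA, IRF1, the transcription factor that binds its IFN-gamma-responsive promoter, had median levels of 39.7 in the both cytokines set, 3.46 in the TNF set and 0.976 in the no cytokine set. IRF1 belongs to the list that was used to check the sets. JAK2, a receptor-bound kinase named here after its values were seen, had medians of 0.735, 0.0575 and 0.0542 in the same order of sets. The receptor chain IFNGR2 had its highest median in the TNF set, at 1.28, 1.65 and 0.542, as did IFNGR1, at 0.515, 0.900 and 0.386. JAK1 had medians of 1.96 in the both cytokines set, 2.09 in the TNF set and 1.44 in the no cytokine set. IRF1, IFNGR2 and JAK1 were among the 5 list genes that lay above the no cytokine set in the TNF set. CIITA did not meet that rule, but it had only 41 counts in the TNF set and 16 in the no cytokine set. At such counts the rule cannot tell whether CIITA was higher in the TNF set, where its pooled ratio was 1.97 (1.08 to 3.75). PRDM1, a repressor of CIITA in plasma cells, had medians of 0.339 in the both cytokines set, 0.131 in the TNF set and 0.0620 in the no cytokine set.

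Among endosomal enzymes the differences were uneven. CTSL, a cathepsin that cuts the invariant chain in thymic epithelium of mice, ranged from 4.31 to 5.49 in the both cytokines set, from 1.23 to 2.03 in the TNF set and from 1.13 to 1.87 in the no cytokine set. CTSD, CTSB and CTSH, further lysosomal proteases, had pooled ratios of both cytokines to no cytokine of 0.830 (0.796 to 0.866), 0.903 (0.833 to 0.978) and 0.827 (0.741 to 0.921). Over all genes the median ratio of set medians in that comparison was 0.848, which each of these intervals covers. SPPL2A, which clips the last membrane stub of CD74, had medians of 1.06 in the both cytokines set, 0.727 in the TNF set and 0.527 in the no cytokine set. Named after their values were seen, IFI30, a thiol reductase that unfolds antigens, had medians of 1.03, 0.210 and 0.154, and LGMN, the protease legumain, medians of 0.826, 0.370 and 0.375. HLA-DQB1, the beta chain of HLA-DQ and also named after its values were seen, had 138 counts in the both cytokines set, 15 in the TNF set and 4 in the no cytokine set.

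**Figure D2:**
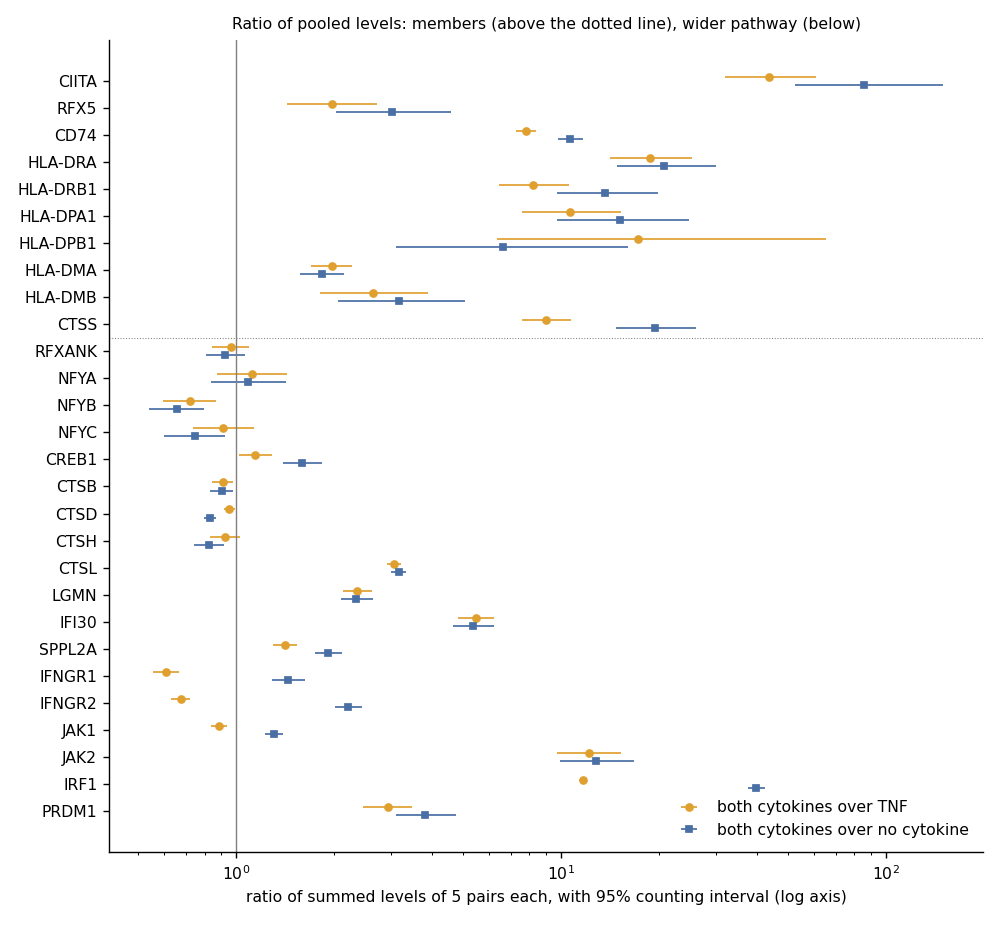
Pooled level of the both cytokines set over that of the TNF set (circles) and over that of the no cytokine set (squares), with 95% counting intervals on a log axis, for the 10 members and for wider pathway genes at the minimum level. CIITA has the highest ratios, at 43.6 and 85.7, while RFXANK lies at 0.963 and 0.927.

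For shares of cells with a UMI, every cell was thinned to 5000 UMIs. This kept 2928 cells and left out 64 shallower cells of the both cytokines set, 96 of the TNF set and 56 of the no cytokine set. CIITA was seen in 45.6%, 39.9%, 34.7%, 33.6% and 42.4% of cells of the both cytokines pairs. In the TNF pairs the share was 0% to 2.07%, and in the no cytokine pairs 0% to 0.794%. Without thinning, CIITA was seen in 52.8% to 67.2% of cells of the both cytokines pairs, so the share depends on depth.

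CD74 was seen in 76.6%, 74.3%, 61.2%, 70.6% and 78.0% of thinned cells of the both cytokines pairs, against 6.67% to 23.6% in TNF pairs and 10.9% to 19.5% in no cytokine pairs. In the both cytokines pairs more cells thus had a CD74 UMI than a CIITA UMI, and without thinning the CD74 share was 69.8% to 83.0%. CTSS was seen in 25.2% to 38.5% of cells of the both cytokines pairs, 2.22% to 5.26% of the TNF pairs and 0% to 3.75% of the no cytokine pairs. At least 1 UMI of HLA-DRA, HLA-DRB1, HLA-DPA1 or HLA-DPB1 was seen in 35.8%, 31.9%, 22.4%, 30.8% and 39.0% of cells of the both cytokines pairs, against 2.22% to 6.21% in TNF pairs and 0% to 5.46% in no cytokine pairs. In HTO3+HTO9 this share rests on 11 of 49 cells (exact 95% interval 11.8% to 36.6%).

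CXCL10, a chemokine induced by IFN-gamma, was seen in 91.8% to 98.6% of cells of the both cytokines pairs, against 6.67% to 12.8% in TNF pairs and 5.80% to 10.4% in no cytokine pairs. In the both cytokines pairs 11.9% to 30.6% of cells had no UMI of CIITA, CD74 or a presenting chain at this depth. A missing UMI at 5000 UMIs does not show that a gene was off. CD74 had a median of 1 to 2 UMIs per thinned cell in the 5 pairs and a highest value of 9 to 12.

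**Figure D3:**
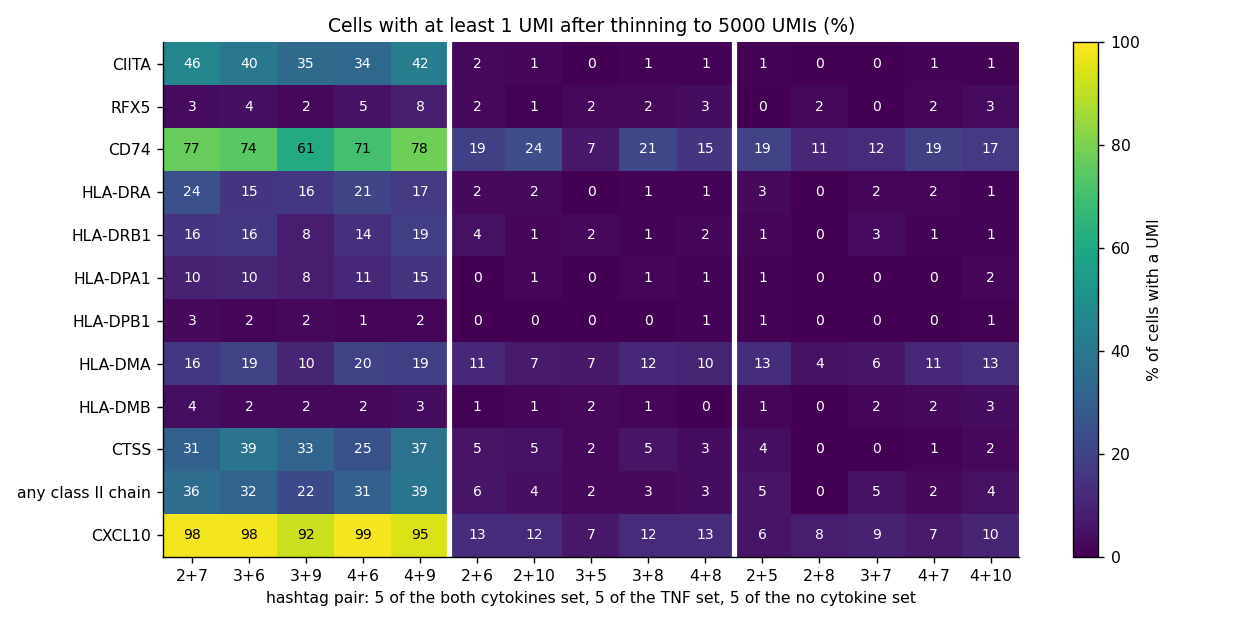
Percent of thinned cells (5000 UMIs each) with at least 1 UMI of each member, of any of the 4 presenting chains and of CXCL10, in the 15 hashtag pairs ordered by inferred set. CIITA is seen in 33.6% to 45.6% and CD74 in 61.2% to 78.0% of cells of the both cytokines pairs.

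Within a pair, class II genes varied together from cell to cell to differing degrees. Over the 49 to 316 thinned cells of each both cytokines pair, Spearman's rho between CD74 and HLA-DRA was 0.320 to 0.435, with a median of 0.386. It was 0.143 to 0.442 between HLA-DRA and HLA-DPA1 and 0.139 to 0.392 between CD74 and HLA-DRB1. These cells share a library and a depth, and the counts are sparse, so the values are descriptions.

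CIITA was also set against other members in the same cells. Its rho with CD74 had a median of 0.197 and ranged from -0.113 in HTO4+HTO9 to 0.278 in HTO2+HTO7. With HLA-DRA it ranged from -0.160 to 0.367 around a median of 0.125. With HLA-DRB1 it ranged from 0.0395 to 0.213 around a median of 0.134, and with CTSS from -0.0352 to 0.163 around 0.120. Cells with a CIITA UMI had more CD74 than cells without in 4 of the 5 pairs, at means of 3.27 against 2.1 in HTO2+HTO7, 2.80 against 1.98 in HTO3+HTO6, 3.06 against 1.47 in HTO3+HTO9 and 2.56 against 2.00 in HTO4+HTO6. In HTO4+HTO9 the mean was 2.36 with CIITA and 3.21 without, over 25 and 34 cells. The SD between cells was 1.98 to 2.84 in these groups. CTSS was higher in cells with a CIITA UMI in 5 of 5 pairs, by 1.20 to 1.76 times, and HLA-DPA1 in 5 of 5, by 1.19 to 9.41 times, where the highest ratio rests on 1 UMI in 32 cells without CIITA. HLA-DRA and HLA-DRB1 were higher in 4 of 5 pairs and lower in HTO4+HTO9, at ratios of 0.573 and 0.680. HLA-DMA had ratios of 0.905, 0.990 and 0.850 in 3 of 5 pairs, and of 1.46 and 7.53 in the others. The 7.53 rests on a mean of 0.0313 UMIs in 32 cells without CIITA. The rho of CIITA with HLA-DMA ranged from -0.0202 to 0.321 around a median of 0.0112.

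The summed IFN-gamma list was higher in cells with a CIITA UMI than in cells without in 4 of 5 pairs, by a ratio of 0.991 to 1.60 over the 5. Its rho with CD74 was 0.266 to 0.596, with a median of 0.398. That median cannot be ranked against the median of CIITA with CD74, because the 2 measures differ in sparsity. The list had a median of 123 UMIs per thinned cell of the both cytokines set, whereas CIITA had 501 UMIs over 855 cells. HLA-DMA had a rho of -0.306 to 0.217 with CD74 and of -0.0763 to 0.164 with the IFN-gamma list, where RFX5 had 0.0222 to 0.158 and HLA-DRB1 -0.103 to 0.200.

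**Figure D4:**
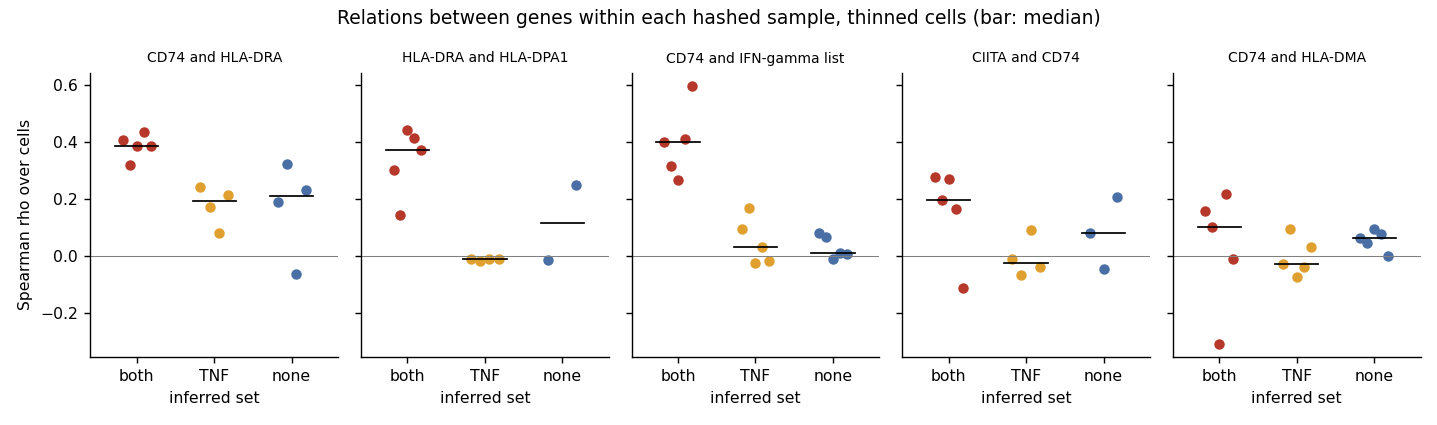
Spearman's rho over thinned cells within each hashtag pair (points) for 5 pairs of measures, by inferred set, with bars at the median; pairs where a gene had no UMI give no value. CD74 with HLA-DRA lies at 0.320 to 0.435 in the both cytokines set, and CIITA with CD74 at -0.113 to 0.278.

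Over the 15 pairs, the genes whose log2(level + 0.1) was most like that of CIITA by Pearson's r were CD274 (0.998), HAPLN3 (0.997), WARS (0.996), IDO1 (0.996), AC007991.2 (0.996), ETV7, GBP7, IL18BP, CXCL11 and BATF2 (0.994). The 15 points fall into 5 high and 10 low pairs, so r mostly measures that split. Among the members HLA-DRA was nearest to CIITA (r = 0.988), followed by CTSS (0.987), HLA-DPA1 (0.979), CD74 (0.971) and HLA-DRB1 (0.966). HLA-DMA (0.902), RFX5 (0.883) and HLA-DPB1 (0.861) were farther. The order depends on the added constant: at log2(level + 0.5), CTSS was nearest (0.991), then CD74 (0.985), HLA-DRA (0.983), HLA-DRB1 (0.965) and HLA-DPA1 (0.964). Among the genes most like the summed class II chains (CD74, HLA-DRA, HLA-DRB1, HLA-DPA1, HLA-DPB1, HLA-DMA and HLA-DMB) were PSMB9 (0.986), UBE2L6, TNFSF13B, CXCL10, MARCKSL1, PLEKHF1, HAPLN3, RNF213 and LAP3 (0.978). PSMB9, the immunoproteasome subunit of the class I pathway, lies in the class II region itself.

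The members were also set against transcripts that were very abundant in the high pairs, since free RNA from 1 pool carries its genes in 1 ratio. For each 100 UMIs of CXCL9, CXCL10, CXCL11 and IDO1 summed, CD74 had 3.20 to 5.85 UMIs in the both cytokines pairs, 35.6 to 134 in TNF pairs and 56.5 to 208 in no cytokine pairs. The class II chains without CD74 had 1.05 to 2.19, 20.8 to 75.8 and 42.5 to 130.0 UMIs, in the same order of sets. For both measures every low pair lay above every high pair. The 4 genes themselves had pooled ratios of both cytokines to TNF of 122 (CXCL11) to 268 (CXCL9). A gene with a lower pooled ratio, as every member has, is higher beside them in the pooled low sets. Nothing on free RNA is therefore read from this order. For CIITA the ratio was 0.772 to 1.41 in the both cytokines pairs, 0 to 6.45 in TNF pairs and 0 to 4.73 in no cytokine pairs. The 7 low pairs with a CIITA count lay at 2.15 to 6.45, and the 3 without had 16 to 39 UMIs of the 4 genes. For HLA-DRA the ratio was 0.315 to 0.754, 0 to 6.45 and 2.56 to 13.6. A high IFN-gamma score, at the 5th percentile of the both cytokines cells or above, was seen in 7 of 1181 thinned TNF cells and 3 of 892 no cytokine cells. These held 6 of the 317 CD74 UMIs of the TNF set and 6 of the 192 of the no cytokine set. The part of free RNA in these counts was not tested further.

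**Figure D5:**
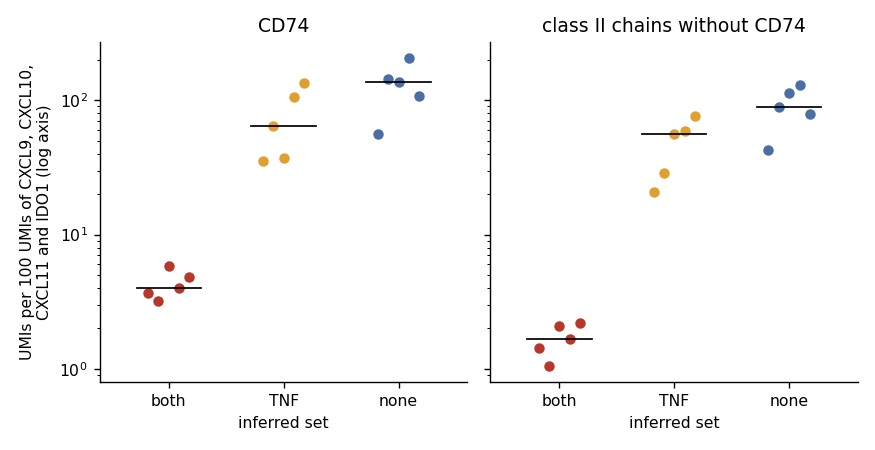
UMIs of CD74 (left) and of the class II chains without CD74 (right) per 100 UMIs of CXCL9, CXCL10, CXCL11 and IDO1 in each hashtag pair, on a log axis, with bars at the median of each inferred set. CD74 lies at 3.20 to 5.85 in the both cytokines set, under every other pair.

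Class II genes also mark professional antigen-presenting cells, so markers of those cells were measured in the same pairs. The summed level of 7 B cell markers was 0 to 0.0215 in the both cytokines set, 0 to 0.0325 in the TNF set and 0.00258 to 0.0147 in the no cytokine set, with CD79B among those at 0. The summed level of 13 myeloid or dendritic markers was 0.424 to 0.687, 0.326 to 0.638 and 0.381 to 0.617 in the same order, and CD1C was at 0. These ranges overlap between all 3 sets. Of 8 T or NK cell markers 6 were at 0, among them CD3D, CD3E and TRAC. The 5 fibroblast markers and the 4 endothelial markers each summed to at most 0.0501 in any pair. All 8 epithelial markers were detected, with a summed level of 37.3 to 44.9 in the both cytokines set, 39.4 to 60.0 in the TNF set and 65.3 to 80.9 in the no cytokine set. The epithelial list was thus lower in the both cytokines set than in the no cytokine set, but overlapped between the both cytokines and TNF sets. The TNF set, where class II genes were low, also lay below the no cytokine set. The part of the epithelial list in the results was not tested. Median UMIs per cell (10942 to 12405) and median mitochondrial shares (12.2% to 14.7%) lay in narrow ranges over the 15 pairs.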

How the data were processed

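The authors deposited 1 matrix of raw UMI counts for genes and hashtags. Its software was Cell Ranger 5.0.1 per the file headers and Cell Ranger 2.1.1, with GRCh38, per the submitters' processing notes; which is right was not resolved. UMIs collapse PCR copies, and 3′ counting sees mostly transcript ends.

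Barcodes with at least 1000 genes and at most 20% mitochondrial UMIs were kept. A cell was placed in its top hashtag pair if its second hashtag reached 10 counts and 3 times the third; pairs with at least 30 cells were used. Cells with no clear pair were left out, no doublet caller was run, and doublets within a pair were not detected. Each pair is 1 hashed sample. Since no label pairs hashtags with treatments and the library is 1 pool, no test between sets was run and no p-value is given; Dixon's limit served only to find pairs far from their set. Intervals are exact Poisson or Clopper-Pearson at 95% and cover counting error only. Thinning drew 5000 UMIs per cell with a fixed seed. The counting rules were tested on simulated data. Values were computed with Python 3.11.15, numpy 2.4.6, scipy 1.17.1 and pandas 2.3.3, and drawn with matplotlib 3.10.9.

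The named genes were the members, up to 5 wider pathway genes per role by mean level among those at 0.05 or more, and the 10 genes most like CIITA and most like the summed chains; some of these are not reported here. The members, lists and sets were chosen with earlier results of these data known. The alternatives tried were other cell, hashtag and level filters, other scalings, other thinning depths, and leaving out pairs.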

Additional observations from a re-analysis of the deposited data

Results flagged for a closer look

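In the TNF set the pair HTO3+HTO5 lay far below the other 4 for 3 measures. HLA-DMA had a level of 0.103 there, CTSS 0.0172 and the summed class II chains 0.258, in UMIs per 10000 UMIs. The HLA-DMA value rests on 6 counts, and its interval of 0.0378 to 0.224 covers the 0.194 of HTO2+HTO10. The gap to the next pair passed the 95% limit of Dixon's test for 5 values, which chance passes in about 1 of 20 groups. The number of groups looked at is not given here, so the 3 passes cannot be weighed against that rate. The pair held 49 cells, the fewest of all, and 6 CD74 counts and 1 CTSS count. The 3 measures share these cells and the summed chains include HLA-DMA, so they are not separate observations. Its summed NF-kB list was also the lowest of the set, at 50.9 against 66.9 to 72.9 in the other 4 pairs, as was its IFN-gamma list, at 4.90 against 7.31 to 10.2.

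Barcodes removed by the filters also carried class II UMIs. Over 447 removed barcodes with hashtag pairs of the both cytokines set, the summed class II chains had a level of 3.86 (3.62 to 4.11), against 6.74 (6.59 to 6.89) in its 919 kept cells. CIITA stood at 1.17 (1.04 to 1.31) in the removed barcodes and 1.17 (1.11 to 1.23) in the kept cells. CD74 stood at 2.67 in removed and 4.89 in kept barcodes of that set. The median mitochondrial share was 29.1% in the removed barcodes and 12.8% in the kept cells; its part in the difference was not tested. In the TNF set the chains had 0.951 in removed and 0.975 in kept barcodes, and in the no cytokine set 0.712 and 0.789.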

How the results depend on the processing

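Of 90 recomputed counts of members, 85 stayed within 1.5 times the main count and 5 did not. With a limit of 10% mitochondrial UMIs, which left 661 cells and 9 in the smallest pair, 2 members were spanning in place of 6, 4 in place of 10 lay above the TNF set and 5 in place of 10 above the no cytokine set; this alternative has fewer cells. Without the 4 smallest pairs, 2 members lay above the no cytokine set in the TNF set, in place of 0. Leaving out each pair in turn gave 6 to 6 spanning members, 10 to 10 above the TNF set, 10 to 10 above the no cytokine set, and 0 to 2 for TNF over no cytokine. The 2 were CD74 and CTSS without HTO3+HTO5. Among the settings that left out cells or pairs, the share over all genes was computed only for TNF over no cytokine without HTO3+HTO5, at 6.04%. The other counts have no background beside them. Of 134 ratios of set medians, 110 moved by less than the spread between pairs of the both cytokines set and 24 moved by more, and none changed direction. That spread leaves out variation among the TNF and no cytokine pairs. Ratios whose divisor was a median of 0 could not be formed and are not among the 134. One of them was CIITA to the no cytokine set at the limit of 10% mitochondrial UMIs. The ratio of medians of CIITA to the no cytokine set was 196 and ranged from 87.6 to 299; the median no cytokine pair held 1 CIITA count. Of 20 shares of cells, 18 moved with the thinning depth. No paired analysis was possible because the hashtag pairs carry no replicate numbers or treatments in the labels. All cells come from 1 library and 1 cell line.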

Other observations

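The 394 kept cells with no clear hashtag pair, which belong to no set, had a level of 2.64 (2.51 to 2.77) for the summed class II chains, 0.351 (0.305 to 0.403) for CIITA, 1.90 for CD74 and 0.278 for CTSS. For all 4 measures these levels lay between those of the both cytokines pairs and the other pairs.

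RFXAP, the third subunit of the RFX complex beside RFX5 and RFXANK, was sparse and went the other way from RFX5. It had 13 counts in the both cytokines set, 40 in the TNF set and 50 in the no cytokine set. Its pooled level in the both cytokines set was 0.439 (0.216 to 0.838) times that of the TNF set and 0.270 (0.134 to 0.504) times that of the no cytokine set. RFXAP lay under the minimum level used for the counts of genes and was picked after its values were seen.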
